A study of Mus musculus with 12 samples.

Results

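Immediate-early genes are transcribed within minutes of a stimulus without new protein synthesis, and their transcripts are short-lived. Calcium entry, growth factors and stress reach them through the MAPK, CREB and SRF routes, and most of their products are transcription factors that act on later genes. In neurons they are widely used as a record of recent activity, while in other cells they also follow injury, serum and handling of the tissue. The 10 genes described here were picked by symbol, as a set with earlier results of these data known, from the 55348 genes counted in each library. They are Fos, Fosb and Fosl2 (FOS family) and Junb (JUN family), which pair to form the AP-1 factor, Egr1, Egr2 and Egr3, which encode zinc-finger factors, Nr4a1, which encodes an orphan nuclear receptor, Npas4, a factor induced in neurons by calcium, and Arc, whose product acts at synapses in the endocytosis of glutamate receptors.

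RNA-sequencing was performed at postnatal day 21 (P21) on organs of Corti, which hold the hair cells of the cochlea and their supporting cells, dissected free of stria vascularis and modiolus, to ask which transcripts depend on clarin-1 and clarin-2, membrane proteins of hair cells. Libraries were made from 4 genotypes, 3 for each and 12 in all. Clrn1-/- mice lack exon 4 of Clrn1, removed in the whole body with PGK-cre from an allele flanked by loxP sites, and Clrn2-/- mice are homozygous for clarinet, a constitutive nonsense allele of Clrn2. Clrn1-/-Clrn2-/- mice came from crossing both lines, and wild-type mice carried neither allele. The wild-type mice were bred on their own rather than as littermates, so that breeding and genotype cannot be told apart. All mice were killed with Ketamine and Xylazine, and the tissue was dissected in ice-cold HBSS and flash frozen, steps that the genotypes share. Neither the number of animals behind a library nor the time from death to freezing is given in the sources used here, and p-values therefore measure the spread between these libraries, which may in part be technical.

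Counts on genes numbered 30008679 to 41049302 per library. Clrn1 was at 25.8 CPM in wild-type and 2.83 and 2.30 CPM in the 2 genotypes with its deletion, and Clrn2 was at 2.72 CPM in wild-type and 0.916 to 1.23 CPM in the 3 mutants, the Clrn1-/- mutant included, where that gene is intact. CPM is a gene's count divided by its library's total after TMM scaling, per 1e+06 counts. All 12 listed hair cell markers and all 12 supporting cell markers had counts in every library, with summed levels of 538 to 750 and 2192 to 3648 CPM. Markers of myelinating Schwann cells, at 20350 to 22390 CPM, and of neurons, at 9603 to 15860 CPM, were more abundant, and none of them was at 0 in any library. In such bulk tissue, fewer cells of a type and less RNA per cell cannot be told apart.

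Promoter windows of members were searched for sites through which signals can reach such genes, and whether these sites act here was not tested. Those of Fos, Fosb and Junb, which rose, and of Egr2, which did not, are shown. Windows of 250 bases before to 50 bases after a RefSeq transcript start on GRCm38.p6 were searched for 7 of the 10 members. Egr1, Egr3 and Arc were not searched. Of the windows, 4 are printed here from 5′ to 3′. Capitals mark short CRE sites, the letters TGACG on either strand that are bound by the CREB and ATF families, and CArG boxes, which are bound by SRF. The Fos window is chr12:85473640-85473939 on the plus strand, that of Fosb chr7:19309996-19310295 on the minus strand, that of Junb chr8:84978699-84978998 on the minus strand, and that of Egr2 chr10:67537619-67537918 on the plus strand.
Fos: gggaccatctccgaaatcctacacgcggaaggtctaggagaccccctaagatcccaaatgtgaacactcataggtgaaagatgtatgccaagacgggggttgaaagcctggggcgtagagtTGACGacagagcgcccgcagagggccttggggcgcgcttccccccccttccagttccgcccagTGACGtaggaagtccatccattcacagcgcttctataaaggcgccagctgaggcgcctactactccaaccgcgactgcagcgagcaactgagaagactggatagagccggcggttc
Fosb: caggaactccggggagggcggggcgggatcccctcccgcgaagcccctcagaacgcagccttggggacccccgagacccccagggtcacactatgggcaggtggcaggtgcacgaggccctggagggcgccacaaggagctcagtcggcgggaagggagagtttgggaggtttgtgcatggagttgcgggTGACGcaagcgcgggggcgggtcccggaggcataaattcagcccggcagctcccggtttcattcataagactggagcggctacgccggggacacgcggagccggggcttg
Junb: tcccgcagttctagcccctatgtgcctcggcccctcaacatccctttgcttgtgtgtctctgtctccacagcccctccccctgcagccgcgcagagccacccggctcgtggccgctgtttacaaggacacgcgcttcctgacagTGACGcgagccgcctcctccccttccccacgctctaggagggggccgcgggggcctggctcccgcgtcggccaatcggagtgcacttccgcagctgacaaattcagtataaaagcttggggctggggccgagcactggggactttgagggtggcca
Egr2: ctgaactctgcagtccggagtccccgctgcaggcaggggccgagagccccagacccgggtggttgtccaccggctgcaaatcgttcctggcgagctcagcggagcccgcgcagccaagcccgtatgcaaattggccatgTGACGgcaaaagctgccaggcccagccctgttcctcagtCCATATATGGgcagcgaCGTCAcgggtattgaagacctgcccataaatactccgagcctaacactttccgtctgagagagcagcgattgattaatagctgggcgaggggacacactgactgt

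The 7 members have 11 windows, 5 of them those of Egr2 at different starts, some of which overlap. A short CRE site was present in 8 of the 11 windows, against 20.8% of 32851 windows of the same length across the genome. The window of Fosl2 and 2 of those of Egr2 were without one. A CArG box was found in 4 of the 11, all of Egr2, 72 bases before the start in the window printed, against 1.63% of all windows. Some of these Egr2 windows overlap and hold the same box. Egr1 and Egr3, which rose, were not searched, so this does not set Egr2 apart from the members that rose. The EGR motif GCGNGGGCG was present in 3 windows, those of Fosl2, Fosb and Nr4a1, against 5.55% of all windows. Neither the full CRE, TGACGTCA, which contains the short site on both strands, nor the AP-1 motif TGANTCA was found in any of the 7, against 1.79% and 7.81% of all windows. These matches describe letters in short windows, and sites farther from the start were not searched.

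Per kilobase of exon, Egr2 was the most abundant member in every genotype, at 24.0 ± 3.38 CPM per kb in wild-type (SD, n = 3). Nr4a1 followed at 8.14 ± 1.37 and Junb at 6.11 ± 0.325 CPM per kb in wild-type, and below them came Egr1 at 3.11 ± 0.542, Arc at 2.63 ± 0.0851 and Fos at 1.92 ± 0.331. Fosl2 at 0.997 ± 0.0357, Egr3 at 0.649 ± 0.164, Fosb at 0.0889 ± 0.0480 and Npas4 at 0.0434 ± 0.0141 CPM per kb closed the order. Of neighbours in this wild-type order, the libraries of Egr1 and Arc overlapped, as did those of Fosb and Npas4, and the other neighbours were separate. In Clrn1-/-Clrn2-/- mice, Fos stood in 4th place at 7.47 ± 0.846 CPM per kb, where its libraries overlapped with those of Egr1 at 6.56 ± 0.461, and Arc had moved to 6th place at 1.89 ± 0.303.

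**Figure D1:**
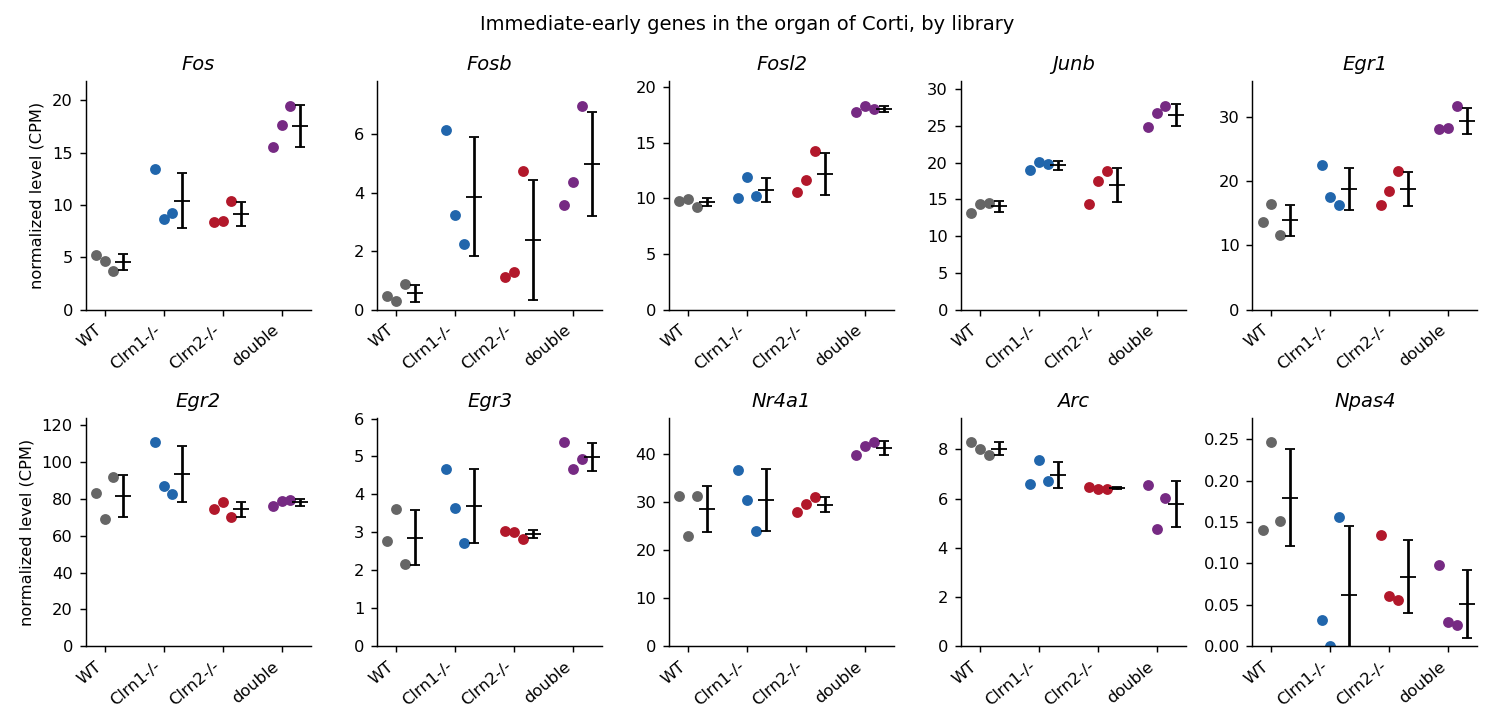
Normalized level (CPM, linear axis from 0) of the 10 immediate-early genes in each of the 12 libraries, with 1 panel per gene, 1 point per library and the mean ± SD of the 3 libraries of a genotype in black. The Clrn1-/-Clrn2-/- ("double") libraries lie above all others for Fos, Fosl2, Junb, Egr1 and Nr4a1.

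Relative to wild-type, 6 of the 9 members that could be tested rose in Clrn1-/-Clrn2-/- mice, namely Fos, Fosb, Fosl2, Junb, Egr1 and Egr3, and none fell past both thresholds. Called here means an adjusted p no larger than 0.05 in edgeR's quasi-likelihood test together with a change of 1.5-fold or more. In that comparison 9.90% of the 19052 genes tested were called, 5.88% higher and 4.02% lower. In Clrn1-/- mice 2 of 9 members were called, Fos and Fosb, both higher, where 7.22% of all genes were called, 3.52% higher and 3.70% lower. The same members, Fos and Fosb, were called higher in Clrn2-/- mice, where 2.66% of all genes were called, 1.24% higher and 1.42% lower. The median log2 fold change of the 9 members was 0.36 for Clrn1-/-, 0.26 for Clrn2-/- and 0.91 for Clrn1-/-Clrn2-/- mice, and that of all genes lay between -0.0031 and 0.0010. The 3 comparisons share the wild-type libraries and are not independent of each other. Mutant and wild-type libraries did not overlap for 8 of the 9 members in Clrn1-/-Clrn2-/- mice, for 5 in Clrn1-/- and for 4 in Clrn2-/- mice, against 48.2%, 40.2% and 29.0% of all genes.

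Fos (ENSMUSG00000021250.13, plus strand of chromosome 12, 85473890 to 85477273 of GRCm38) encodes the founding FOS protein of AP-1. Its levels were 5.20, 4.68 and 3.67 CPM in wild-type, 13.4, 8.62 and 9.22 in Clrn1-/- and 8.39, 8.51 and 10.4 in Clrn2-/- libraries, and 15.5, 17.6 and 19.5 in Clrn1-/-Clrn2-/- libraries. All mutant libraries lay above all wild-type ones, and all Clrn1-/-Clrn2-/- libraries lay above those of both single mutants. Relative to wild-type, Fos was 2.30-fold higher in Clrn1-/- mice (log2 fold change 1.20, standard error 0.168, edgeR adjusted p = 7.96e-05). In Clrn2-/- mice it was 2.02-fold higher (1.02, standard error 0.169, edgeR adjusted p = 8.44e-04), and in Clrn1-/-Clrn2-/- mice 3.90-fold (1.97, standard error 0.164, edgeR adjusted p = 1.75e-07). These calls were made under every alternative tried.

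Fosb (ENSMUSG00000003545.3, minus strand of chromosome 7, 19302696 to 19310051) encodes a FOS protein with a long-lived short form in neurons. It was at 0.478, 0.301 and 0.886 CPM in wild-type, 6.14, 3.23 and 2.23 in Clrn1-/- and 1.13, 1.29 and 4.75 in Clrn2-/- libraries, and 3.57, 4.37 and 6.99 in Clrn1-/-Clrn2-/- libraries. Every mutant library was above every wild-type one, but Clrn2-/- replicate 3 stood 4.20 times as high as the lowest library of its genotype. Its rise was 6.75-fold in Clrn1-/- (log2 fold change 2.76, standard error 0.575, edgeR adjusted p = 0.00225) and 8.88-fold in Clrn1-/-Clrn2-/- mice (3.15, standard error 0.562, edgeR adjusted p = 3.46e-04). In Clrn2-/- mice the change was 4.24-fold (2.08, standard error 0.604, edgeR adjusted p = 0.0304). That call was lost with limma-voom (adjusted p = 0.106), with the 2 genotypes fitted alone (edgeR adjusted p = 0.0524), and without wild-type replicate 1 (0.0918), wild-type replicate 2 (0.103) or Clrn2-/- replicate 3, where the log2 fold change was 1.10 (edgeR adjusted p = 0.231). Of the 9 tested members, Fosb varied most between libraries of 1 genotype relative to its level, with a coefficient of variation of 40.6% beyond counting, at the 99.6th percentile of the genes tested, whose median was 6.55%.

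Fosl2 (ENSMUSG00000029135.10, plus strand of chromosome 5, 32135801 to 32157842) encodes FRA-2, a FOS relative that lacks a strong activation domain. Its levels were 9.78, 9.92 and 9.26 CPM in wild-type, 10.0, 11.9 and 10.2 in Clrn1-/- and 10.6, 11.6 and 14.2 in Clrn2-/- libraries, and 17.8, 18.3 and 18.1 in Clrn1-/-Clrn2-/- libraries. The Clrn1-/-Clrn2-/- libraries lay close together and above all others. In these mice the rise was 1.87-fold (log2 fold change 0.91, standard error 0.0980, edgeR adjusted p = 2.68e-06). The single mutants differed less from wild-type, at 0.15 in Clrn1-/- mice (edgeR adjusted p = 0.292) and, under the fold minimum, 0.33 in Clrn2-/- mice (edgeR adjusted p = 0.0367).

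Junb (ENSMUSG00000052837.6, minus strand of chromosome 8, 84974484 to 84978718) encodes a JUN protein that partners FOS proteins and restrains some actions of c-Jun. It was at 13.2, 14.4 and 14.6 CPM in wild-type, 18.9, 20.1 and 19.8 in Clrn1-/- and 14.4, 17.6 and 18.8 in Clrn2-/- libraries, and 24.9, 26.7 and 27.8 in Clrn1-/-Clrn2-/- libraries. Clrn1-/- and Clrn1-/-Clrn2-/- libraries were above all wild-type ones, and Clrn2-/- libraries overlapped with them. Junb was 1.88-fold higher in Clrn1-/-Clrn2-/- mice (log2 fold change 0.91, standard error 0.0850, edgeR adjusted p = 5.64e-07). In Clrn1-/- mice the difference was 0.48 (edgeR adjusted p = 6.67e-04), under the fold minimum, and it was 0.26 for Clrn2-/- mice (edgeR adjusted p = 0.0536). Junb overlaps Prdx2 on the plus strand, and its counts here come from the strand of Junb.

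Egr1 (ENSMUSG00000038418.7) encodes a zinc-finger activator whose transcription follows MAPK signalling through SRF. Its levels were 13.6, 16.5 and 11.7 CPM in wild-type, 22.5, 17.6 and 16.3 in Clrn1-/- and 16.3, 18.4 and 21.7 in Clrn2-/- libraries, and 28.1, 28.4 and 31.8 in Clrn1-/-Clrn2-/- libraries. Both single mutants overlapped with wild-type, while the Clrn1-/-Clrn2-/- libraries were above all others. Egr1 was 2.12-fold higher in Clrn1-/-Clrn2-/- mice (log2 fold change 1.08, standard error 0.132, edgeR adjusted p = 9.01e-06). The differences in the single mutants were 0.43 each (edgeR adjusted p = 0.0268 in Clrn1-/- and 0.0421 in Clrn2-/-), under the fold minimum.

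Egr2 (ENSMUSG00000037868.15, plus strand of chromosome 10, 67535475 to 67542188) encodes the factor that Schwann cells need to form myelin. It was at 83.2, 69.2 and 92.1 CPM in wild-type, 111, 87.2 and 82.8 in Clrn1-/- and 74.6, 78.6 and 70.3 in Clrn2-/- libraries, and 76.0, 78.7 and 79.7 in Clrn1-/-Clrn2-/- libraries. Wild-type libraries overlapped with those of all 3 mutants. The log2 fold changes were 0.20, -0.13 and -0.06 (edgeR adjusted p = 0.160, 0.440 and 0.683). Of 10 markers of myelinating Schwann cells, none was called in any mutant by edgeR, limma-voom or DESeq2, with 8, 3 and 7 at an unadjusted p under 0.05. Egr3 (ENSMUSG00000033730.4, plus strand of chromosome 14, 70077203 to 70082614), a factor downstream of EGR1-type signals in neurons and muscle spindles, was at 2.78, 3.62 and 2.18 CPM in wild-type, 4.68, 3.65 and 2.73 in Clrn1-/- and 3.04, 3.00 and 2.84 in Clrn2-/- libraries, and 5.38, 4.67 and 4.92 in Clrn1-/-Clrn2-/- libraries. Only the Clrn1-/-Clrn2-/- libraries were all above wild-type, by 1.75-fold (0.81, standard error 0.186, edgeR adjusted p = 0.00284). In Clrn1-/- mice its difference was 0.36 (edgeR adjusted p = 0.181), and it was 0.05 for Clrn2-/- mice (edgeR adjusted p = 0.896).

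Nr4a1 (ENSMUSG00000023034.7, plus strand of chromosome 15, 101254269 to 101274795) was at 31.3, 23.0 and 31.3 CPM in wild-type, 36.8, 30.5 and 23.9 in Clrn1-/- and 27.9, 29.6 and 31.1 in Clrn2-/- libraries, and 39.8, 41.8 and 42.5 in Clrn1-/-Clrn2-/- libraries. The last lay above all others, and the single mutants overlapped with wild-type. Its 1.45-fold difference in Clrn1-/-Clrn2-/- mice had an edgeR adjusted p of 0.00314 and missed the fold minimum (log2 fold change 0.53, standard error 0.126), which it passed at 0.60 without wild-type replicate 1 or without wild-type replicate 3. In the single mutants the differences were 0.09 and 0.05 (edgeR adjusted p = 0.661 and 0.855).

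Arc (ENSMUSG00000022602.14, minus strand of chromosome 15, 74669083 to 74672570) was the tested member with a lower mean in each of the 3 mutants. Its levels were 8.29, 8.03 and 7.77 CPM in wild-type, 6.58, 7.56 and 6.70 in Clrn1-/- and 6.48, 6.40 and 6.41 in Clrn2-/- libraries, and 6.56, 4.76 and 6.03 in Clrn1-/-Clrn2-/- libraries. All 9 mutant libraries were below all wild-type libraries. The 1.39-fold difference in Clrn1-/-Clrn2-/- mice (log2 fold change -0.47, standard error 0.107, edgeR adjusted p = 0.00239) was under the fold minimum. In Clrn1-/- and Clrn2-/- mice the values were -0.21 and -0.32 (edgeR adjusted p = 0.163 and 0.0558). Npas4 (ENSMUSG00000045903.9, minus strand of chromosome 19, 4984355 to 4990316) had 5, 9 and 6 counts in wild-type, 1, 0 and 6 in Clrn1-/- and 5, 2 and 2 in Clrn2-/- libraries, and 3, 1 and 1 in Clrn1-/-Clrn2-/- libraries. It did not pass the filter on low counts and was not tested. In CPM, its libraries in Clrn2-/- and Clrn1-/-Clrn2-/- mice were below all wild-type ones, with 9 and 5 counts in sum against 20 in wild-type. Replicate 1 of Clrn2-/- and replicate 1 of wild-type, however, had 5 counts each (0.1345 and 0.1405 CPM), which counts this low cannot tell apart. The Clrn1-/- libraries, with 7 counts in sum, overlapped with wild-type. The library with 0 counts allows up to 0.0776 CPM, the level of 3 counts.

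**Figure D2:**
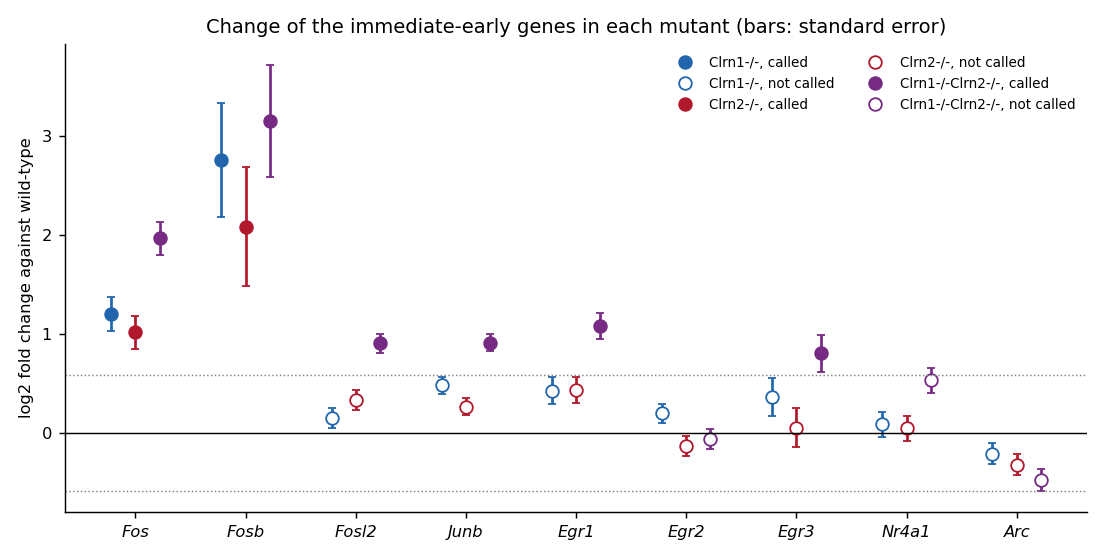
Log2 fold change of the 9 tested members against wild-type with Clrn1-/- mice in blue, Clrn2-/- mice in red and Clrn1-/-Clrn2-/- mice in purple, with bars for the standard error and dotted lines at the 1.5-fold minimum. Filled points are called. In Clrn1-/-Clrn2-/- mice 6 members are called, from 0.81 for Egr3 to 3.15 for Fosb, and Arc is at -0.47.

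The Clrn1-/-Clrn2-/- mice were next compared with each single mutant, to ask what loss of the second clarin adds. Against Clrn1-/- mice, Fos (log2 fold change 0.76, edgeR adjusted p = 0.00107), Fosl2 (0.75, 2.65e-05) and Egr1 (0.65, 0.00109) were called higher, 3 of 9 members where 7.23% of all genes were called. Without Clrn1-/- replicate 1, Egr3 at 0.63 and Nr4a1 at 0.59 were called as well, which makes 5. Against Clrn2-/- mice, Fos (0.95, edgeR adjusted p = 2.95e-04), Junb (0.65, 4.80e-05), Egr1 (0.65, 0.00159) and Egr3 (0.75, 0.00715) were called higher, 4 of 9 where 5.10% of all genes were called. Without Clrn2-/- replicate 1 this number was 2, since Junb at 0.53 and Egr1 at 0.55 then missed the fold minimum. Without Clrn2-/- replicate 3 it was 6, with Fosb at 2.04 and Fosl2 at 0.69. Egr1 also missed it without Clrn1-/-Clrn2-/- replicate 3 in both comparisons (0.58 and 0.57), and without Clrn1-/- replicate 3 in the first (0.55).

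Between the single mutants none of the 9 members was called by edgeR at both thresholds, where 4.73% of all genes were, nor by limma-voom or DESeq2. Junb (log2 fold change 0.22 for Clrn1-/- against Clrn2-/-, edgeR adjusted p = 0.0910) and Egr2 (0.33, edgeR adjusted p = 0.0320) were the 2 members with an unadjusted p under 0.05, both with the larger mean in Clrn1-/- mice. Fosb, at 0.67 (standard error 0.468, edgeR adjusted p = 0.357), was called at 1.66 without Clrn2-/- replicate 3. The interaction asks whether the change in Clrn1-/-Clrn2-/- mice departs from the sum of the log2 changes of the single mutants. None of the members was called for it by edgeR, limma-voom or DESeq2, where edgeR called 5.50% of all genes. At an unadjusted p under 0.05 there were 3. Fosl2, at 0.42 (standard error 0.140, edgeR adjusted p = 0.0493), was under the fold minimum, and Nr4a1 at 0.40 and Fosb at -1.69 had edgeR adjusted p-values of 0.143. For Fos the interaction was -0.25 (standard error 0.227, edgeR adjusted p = 0.499).

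**Figure D3:**
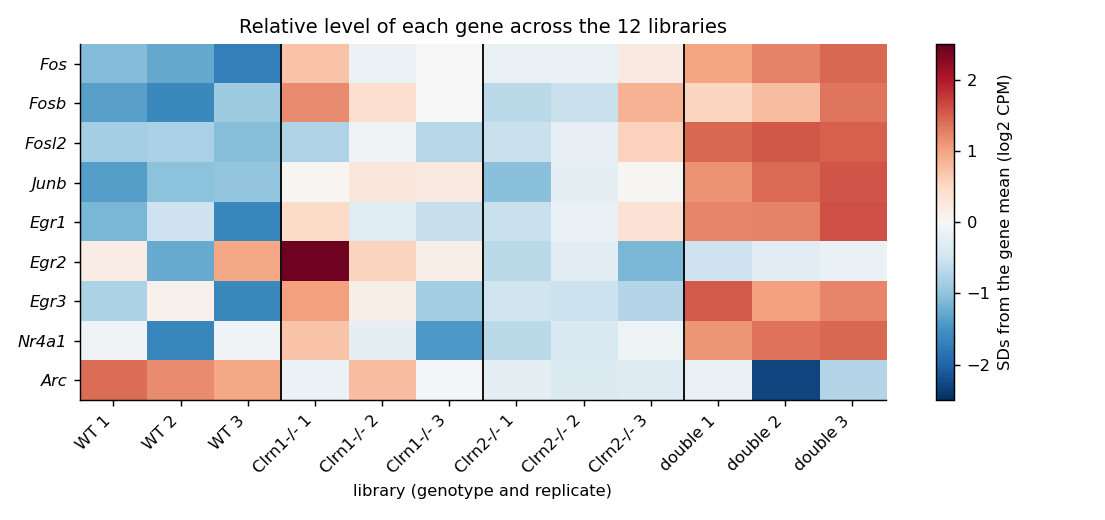
Relative level of the 9 tested members in the 12 libraries, each gene given as its distance in SDs from its mean log2 CPM, with black lines between genotypes. The 3 Clrn1-/-Clrn2-/- libraries are above the mean for Fos, Fosb, Fosl2, Junb, Egr1, Egr3 and Nr4a1, and Arc is above its mean in the 3 wild-type libraries.

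Several members moved together between libraries of 1 genotype. Clrn1-/- replicate 1 was the highest of its genotype for 6 of 9 members (Fos, Fosb, Egr1, Egr2, Egr3 and Nr4a1), Clrn2-/- replicate 3 for 6 (Fos, Fosb, Fosl2, Junb, Egr1 and Nr4a1) and Clrn1-/-Clrn2-/- replicate 3 for 6 (Fos, Fosb, Junb, Egr1, Egr2 and Nr4a1). In wild-type each library was the highest for 3 members. After subtraction of each genotype's mean, the correlation between pairs of the 6 members called in Clrn1-/-Clrn2-/- mice had a median of 0.46 over the 12 libraries and a range of -0.23 to 0.81, with 14 of 15 pairs above 0. These pairs share libraries and their scaling, and no test was made of them. Beyond counting, the members other than Fosb had coefficients of variation from 6.90% (Junb) to 14.2% (Egr3).

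Genes outside the members were ranked by the correlation of their log2 CPM with the mean of the members, each centred and scaled, over the 12 libraries and among 12446 genes at 5 CPM or more. Differences between genotypes enter this measure. Tgif1, which encodes a repressor of TGF-beta signalling, came first (r = 0.98), with means of 11.6 CPM for wild-type, 14.2 for Clrn1-/-, 12.7 for Clrn2-/- and 17.5 for Clrn1-/-Clrn2-/- mice. Dennd4c (0.97), Rif1 (0.96), Prrc1 (0.96), Lats1 (0.96), Aff4 (0.95), Prrg4 (0.95), Moxd1 (0.95), Pros1 (0.95) and Sft2d2 (0.95) followed. After subtraction of each genotype's mean the order was different, led by Abca1 (0.94), Pnn (0.94), Fuz (0.93), Atm (0.91), Dpy19l3 (0.91), Atrx (0.91), U2surp (0.89), Mob3c (0.89), Zfx (0.89) and Brwd3 (0.89).

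Other genes of the pathway were followed in 5 lists. Of 37 tested genes of the primary response outside the 10 members, 10 rose and none fell in Clrn1-/-Clrn2-/- mice, where 5.88% of all genes rose, with a median log2 fold change of 0.36. Atf3, a stress-induced partner of JUN proteins, was at 7.36 ± 1.06 CPM in wild-type and 29.3 ± 1.04 in Clrn1-/-Clrn2-/- mice (SD, n = 3), which is 1.99 on the log2 scale (edgeR adjusted p = 1.22e-09). Socs3, an inhibitor of cytokine receptors, rose from 5.18 ± 0.348 to 12.1 ± 1.50 CPM (1.23, edgeR adjusted p = 5.81e-07), and Ccn2, a matrix-associated growth factor, from 84.1 ± 2.55 to 175 ± 4.92 CPM (1.06, edgeR adjusted p = 8.04e-11). Maff, Klf10, Plk2, Nr4a3, Ccn1, Ier2 and Fosl1 were the others called. Jun, which encodes the main partner of FOS proteins, was at 125 ± 4.04 CPM in wild-type and 165 ± 5.71 in these mice (0.39, edgeR adjusted p = 9.49e-05), under the fold minimum. It was highest in Clrn2-/- mice, at 183 ± 19.0 CPM (0.55, edgeR adjusted p = 2.97e-05, also under the fold minimum), and at 145 ± 5.16 CPM in Clrn1-/- mice (0.22, edgeR adjusted p = 0.0162).

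In Clrn1-/- mice 4 of the 37 were called (10.8%, against 7.22% of all genes), Socs3 (log2 fold change 0.73), Ier5 (0.61) and Fosl1 higher and Klf2 lower (-1.01). In Clrn2-/- mice 3 were called (8.11%, against 2.66% of all genes), Atf3 (1.45), Socs3 (0.71) and Fosl1, all higher. Fosl1, the gene of FRA-1, lay under the 1 CPM asked of named genes and was chosen after its values were seen, because it was called in each mutant. Its mean was 0.0450 CPM for wild-type, 0.393 for Clrn1-/-, 0.398 for Clrn2-/- and 0.681 for Clrn1-/-Clrn2-/- mice. The log2 fold changes were 3.02, 3.06 and 3.83 (edgeR adjusted p = 0.00157, 0.00283 and 4.27e-05). The wild-type mean is under the level of 3 counts, so the size of these changes is uncertain. Fosl1 passed the filter on low counts only through mutant libraries, and it is among the called genes counted for each mutant. The median of the 37 genes was 0.09 in Clrn1-/- and 0.15 in Clrn2-/- mice.

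None of 27 kinases and transcription factors upstream of the members was called in any mutant by edgeR, limma-voom or DESeq2, Srf and Creb1 among them, and 17, 11 and 12 of them had an unadjusted p under 0.05 in Clrn1-/-, Clrn2-/- and Clrn1-/-Clrn2-/- mice. Srf itself was at 33.2 ± 0.836, 32.6 ± 1.63, 28.9 ± 1.42 and 35.0 ± 1.53 CPM in the 4 genotypes in the order above (SD, n = 3), with a log2 fold change of -0.20 in Clrn2-/- mice (edgeR adjusted p = 0.0277). Of 16 feedback inhibitors, 2 were called in Clrn1-/-Clrn2-/- mice, both phosphatases of MAP kinases, a share of 12.5% that lies near the 9.90% of all genes. Dusp6 rose from 20.5 ± 1.09 to 42.4 ± 1.67 CPM (1.05, edgeR adjusted p = 2.46e-09) and Dusp1 from 37.5 ± 1.86 to 56.9 ± 5.48 CPM (0.60, edgeR adjusted p = 2.40e-06). In Clrn1-/- mice Dusp5 fell (-0.78, edgeR adjusted p = 5.10e-04), the only one of the 16 called there, and none was called in Clrn2-/- mice, where edgeR gave 7 an unadjusted p under 0.05 and limma-voom and DESeq2 called 0.

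Of 14 later genes of neuronal activity, 3 rose in Clrn1-/-Clrn2-/- mice and none fell (21.4% called, against 9.90% of all genes), with a median of 0.05. Bdnf, a neurotrophin, was at 5.82 to 7.06 CPM in wild-type and 11.4 to 12.8 CPM in these mice (log2 fold change 0.94, edgeR adjusted p = 1.32e-06). Rasl11a was called at 0.65 (edgeR adjusted p = 0.0494) although its libraries overlapped, and Adcyap1, a neuropeptide gene under 1 CPM named after its values were seen, at 1.38 (edgeR adjusted p = 0.00140). In Clrn1-/- mice Adcyap1 rose (1.38) while Penk (-2.39) and Nptx2 (-0.70, with overlapping libraries) fell, 21.4% called against 7.22% of all genes. None of the 14 was called in Clrn2-/- mice by any of the 3 tools (4 at an unadjusted p under 0.05). Among 11 heat shock genes, which answer protein damage and heat, Hspa1b and Hspa1a rose in Clrn1-/-Clrn2-/- (2.06 and 1.38) and in Clrn2-/- mice (1.56 and 1.08). They make up 18.2% of the list, against 9.90% and 2.66% of all genes called in these mutants. None of the 11 was called in Clrn1-/- mice by any of the 3 tools (5 at an unadjusted p under 0.05).

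**Figure D4:**
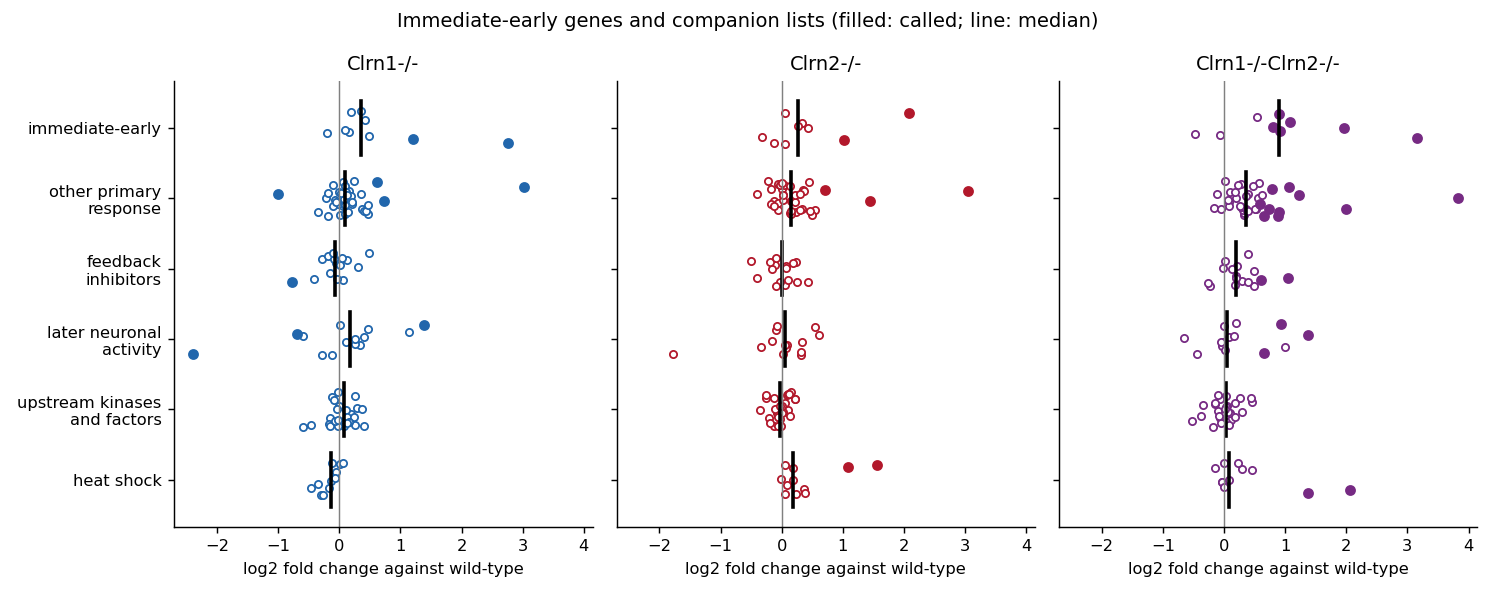
Log2 fold change against wild-type of the tested genes of 6 lists in each mutant, 1 point per gene, filled where called, with a black line at the median of the list. In Clrn1-/-Clrn2-/- mice the 9 members have a median of 0.91 and the 37 other primary response genes one of 0.36, while none of the 27 upstream kinases and factors is called.

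Cell type markers differed between the same libraries, and their part in the changes of the members was not tested. For reading the counts below, 9.90% of all genes were called for Clrn1-/-Clrn2-/- mice (5.88% higher, 4.02% lower). The share was 7.22% for Clrn1-/- mice and 2.66% for Clrn2-/- mice. Whether a marker list departs from these shares was not tested. In Clrn1-/-Clrn2-/- mice 7 of 12 supporting cell markers and 6 of 9 macrophage markers rose and none fell, with sums of 3420 to 3648 against 2192 to 2413 CPM and of 238 to 279 against 147 to 191 CPM in wild-type. Macrophage markers were also higher in Clrn1-/- libraries, at 236 to 254 CPM with 3 of 9 called, and in Clrn2-/- libraries they were at 171 to 218 CPM with 1 of 9 called. Among 14 neuron markers 5 fell and 3 rose in Clrn1-/-Clrn2-/- mice, with sums of 9603 to 9890 against 14390 to 15860 CPM in wild-type. Of 12 hair cell markers 3 rose, with sums of 720 to 750 against 538 to 593 CPM. Red blood cell markers fell, 2 of 5 in Clrn1-/-Clrn2-/- and 5 of 5 in both single mutants. Fibroblast markers summed to 6208 to 6807 CPM in Clrn1-/- and 6068 to 6506 CPM in Clrn2-/- libraries, below the 8182 to 10130 CPM of wild-type, while Clrn1-/-Clrn2-/- libraries, at 8378 to 9705 CPM, overlapped with wild-type. Of these 8 markers 2 rose and 2 fell in Clrn1-/- mice, 2 fell in Clrn2-/- mice, and 2 rose and 1 fell in Clrn1-/-Clrn2-/- mice. Of 6 markers of the stria vascularis 1 rose and 2 fell in Clrn1-/-Clrn2-/- mice, with sums of 788 to 858 against 656 to 781 CPM in wild-type. Of 8 endothelial, 6 skeletal muscle and 5 bone markers, 0, 1 and 1 were called in Clrn1-/-Clrn2-/- mice, and bone markers summed to 170 to 202 CPM in Clrn1-/- against 89.0 to 167 CPM in wild-type libraries. None of these lists had a marker at 0 in any library. In Clrn1-/- mice 0 of 14 neuron markers were called (9 at an unadjusted p under 0.05, 0 by limma-voom and DESeq2). Their sums there, 12410 to 13010 CPM, were below those of wild-type. Called in Clrn1-/- mice were also 1 of 12 supporting cell markers (10 at an unadjusted p under 0.05) and 2 of 12 hair cell markers. In Clrn2-/- mice 1 of 14 neuron, 3 of 12 supporting cell and 4 of 12 hair cell markers were called.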

How the data were processed

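RNA was measured in 12 libraries of organ of Corti, 3 for each of 4 genotypes, grouped by the genotype and replicate number of the labels. The deposited values are raw counts per gene, made by the authors from stranded paired-end reads with STAR on GRCm38.p6 and Gencode vM24, and the submitters' notes also name DESeq2. The version of STAR is not given in the sources used here. Counts on the reverse strand, 95.2% to 95.6% of the stranded counts, were used, and reads outside genes (13.5% to 15.8%) were left out. Gene positions and exon lengths came from Gencode M21 for 53244 of the 55348 genes by symbol, and promoters from RefSeq.

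Tests were run with edgeR 4.0.16 under R 4.3.3. The 19052 genes kept by filterByExpr (minimum count 10) were scaled by TMM, fitted in 1 model of all 12 libraries with genotype alone, and compared by the quasi-likelihood test with Benjamini-Hochberg adjustment over all of them. The study's thresholds, an adjusted p of at most 0.05 and 1.5-fold, were applied, while the study itself used limma-voom. Standard errors were derived from the test statistic, and the procedure was checked on simulated counts. Depth was 30008679 to 41049302 counts on genes, and the floor of 3 counts covers counting error only. Alternatives were limma-voom (limma 3.58.1), DESeq2 1.42.0, library size alone, no filter, only the genotypes compared, unstranded counts, no fold minimum, a replicate block, and leaving out each library. After the data were seen, the same alternatives were applied to the other primary response genes.

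The members and gene lists were chosen with earlier results of these data known. All 10 members were named in every library. Of each companion list, up to 3 called genes per direction with the largest change and a mean of at least 1 CPM in a genotype were named. Outside this rule, Jun, Srf, Creb1, Fosl1 and Adcyap1 were named, as were the remaining primary response genes called in Clrn1-/-Clrn2-/- mice. Genes most like the members were the 10 with the highest correlation.

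Replicate numbers have no stated meaning. Over 12453 genes, same-numbered libraries deviated from the means of their groups with a correlation above 0.1 in 7 of 18 pairs (range -0.279 to 0.306), and in all 3 pairs only between wild-type and Clrn1-/- (0.291, 0.134 and 0.111). No correlations of differently numbered libraries were set beside these, so they do not show that the numbers pair libraries. The replicate block left 2 members called in Clrn1-/- mice against wild-type.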

Additional observations from a re-analysis of the deposited data

Results flagged for a closer look

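Fosl2 was the member whose interaction of Clrn1 and Clrn2 loss had an adjusted p under 0.05. The change in Clrn1-/-Clrn2-/- mice exceeded the sum of the changes in both single mutants by 0.42 on the log2 scale (standard error 0.140, edgeR adjusted p = 0.0493 for the interaction), which is below the 1.5-fold minimum. Its levels were 9.65 ± 0.346 CPM in wild-type, 10.7 ± 1.08 in Clrn1-/- and 12.2 ± 1.89 in Clrn2-/- mice, and 18.1 ± 0.269 in Clrn1-/-Clrn2-/- mice (SD, n = 3). The adjusted p was above 0.05 in 9 of the 12 fits that left out a library, with values of 0.33 to 0.53 on the log2 scale and adjusted p-values of 0.00719 to 0.122, with scaling by library size alone (0.0779) and with unstranded counts (0.0520).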

How the results depend on the processing

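Of 864 values for single members under the alternatives, 827 kept their direction and their side of the thresholds, 10 lost a call, 12 gained one and 15 changed sign. Without the fold minimum 4 members were called in Clrn1-/- and 4 in Clrn2-/- mice against wild-type, 5 in Clrn1-/-Clrn2-/- against Clrn1-/- mice, and 1 each between the single mutants and for the interaction. With limma-voom, and with only the genotypes compared, 1 member was called in Clrn2-/- mice, Fos. Against Clrn2-/- mice, Clrn1-/-Clrn2-/- mice had 6 members called with limma-voom, where Fosb (1.35, adjusted p = 0.0367) and Fosl2 (0.59, adjusted p = 2.68e-04) joined the 4, and 5 without the filter on low counts, where Fosb did. Without that filter 1 member, Fosb, was called between the single mutants and for the interaction. There edgeR's prior degrees of freedom were infinite, against 7.475 with the filter, so that a gene's own spread between libraries did not enter its test. With each library left out in turn, the members called numbered 2 for Clrn1-/-, 1 to 2 for Clrn2-/- and 6 to 7 for Clrn1-/-Clrn2-/- mice against wild-type, 2 to 5 and 2 to 6 for Clrn1-/-Clrn2-/- against Clrn1-/- and Clrn2-/- mice, 0 to 1 between the single mutants and 0 for the interaction. The 6 members called in Clrn1-/-Clrn2-/- mice kept their calls under all alternatives. Changes of sign concerned small log2 differences and, apart from Egr1 between the single mutants with library size alone (0.0059), came from leaving out 1 library. Over these fits Nr4a1 ranged from -0.0647 to 0.239 in Clrn1-/- and from -0.0810 to 0.124 in Clrn2-/- mice, Egr3 from -0.113 to 0.263 in Clrn2-/- mice and Egr2 from -0.173 to 0.0247 in Clrn1-/-Clrn2-/- mice, all against wild-type. Between the single mutants Egr1 ranged from -0.150 to 0.108, Fos from -0.0324 to 0.307 and Nr4a1 from -0.119 to 0.185, and the interaction of Arc from -0.0575 to 0.158. The cause was not tested. The replicate block changed no call of a member. Of the other primary response genes, 10 were called in Clrn1-/-Clrn2-/- mice, 8 to 12 under alternatives chosen after seeing the data other than the dropped fold minimum, which gave 26. Depth limits Npas4, which had 0 to 9 counts per library.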

Other observations

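Counts on the strand opposite to Junb, which overlaps Prdx2, differed between genotypes. They came to 9.99 ± 0.705 CPM in wild-type, 2.39 ± 0.361 in Clrn1-/- and 10.5 ± 0.452 in Clrn2-/- libraries, and 8.72 ± 0.799 in Clrn1-/-Clrn2-/- libraries (SD, n = 3). The 3 Clrn1-/- libraries, at 2.07 to 2.78 CPM, lay below all others, whose lowest value was 8.17 CPM. Prdx2 itself was at 224 to 266 CPM in the 12 libraries. The other 9 members had 0 to 11 counts per library on the opposite strand. These values were noticed after the data were seen and were not tested.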
